A study of Mus musculus with 2 samples.

Results

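The genes described here encode the enzymes, and 1 partner protein of an enzyme, that make and break down eicosanoids: Ptgs1, Ptgs2, Ptges, Hpgds and Hpgd of the cyclooxygenase arm, and Alox5, Alox5ap, Lta4h, Ltc4s and Alox15 of the lipoxygenase arm. They were chosen by symbol, as 10 of the 32285 genes in the count tables of both libraries, and all 10 had at least 1 UMI (unique molecular identifier, which marks 1 captured transcript) in the kept cells of each library. Their level was followed across neutrophils, monocytes and macrophages, dendritic cells, mast cells and lymphocytes.

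Immune cells that had entered the gingiva were profiled in C57BL/6 mice in a study of experimental periodontitis, a gum inflammation model. One library came from wild-type (WT) mice and 1 from mice labelled Otud1-/-, which lack the deubiquitinase OTUD1 according to the label. The 10x Genomics Chromium 3′ chemistry, version 3.1, was used for both. The sources used here give neither the number and age of the animals, nor whether they were pooled, nor which part of Otud1 was deleted.

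Eicosanoids are short-lived lipid signals made from arachidonic acid, which phospholipases release from membranes. The cyclooxygenases turn it into prostaglandin H2, from which prostaglandin E2 or D2 is formed, while 5-lipoxygenase, helped by its membrane partner FLAP (the product of Alox5ap), turns it into leukotriene A4. In gum inflammation prostaglandin E2 is known for promoting bone loss and vascular leak, leukotriene B4 for drawing in neutrophils, and prostaglandin D2 and the cysteinyl leukotrienes as products of mast cells.

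After filters, 11414 WT cells (34286720 UMIs, median 2131.5 per cell) and 6486 cells of the library labelled Otud1-/- (37634456 UMIs, median 4148.5) were kept. These were clustered without the 10 genes and without 56 further eicosanoid pathway genes, and clusters were named from marker lists, so that a class name means cells resembling that type. Each library stands for 1 group, so no difference between them has a replicate check, and no test was possible. Otud1 RNA was not lower in the second library, at 33.3 CPM (31.5 to 35.2) against 18.8 CPM in the WT library (17.4 to 20.3). As the deleted part of the gene is not given, this level does not show whether the label holds. CPM is the UMIs of a gene per 1000000 UMIs of all genes in the same cells. The second library is therefore named only as the library labelled Otud1-/-. Its cells also differed in sex-linked RNA, with 5 UMIs of the female transcript Xist against 10952 in the WT library. Y-linked genes had 8659 UMIs in the library labelled Otud1-/- and 5109 in the WT library, which thus held RNA of both sexes. Of the WT cells, 2579 had Y-linked and no Xist UMIs. In addition, 37 cell barcode sequences occurred in both libraries. Barcodes over 15% mitochondrial UMIs, which were dropped, made up 3.58% of the WT library and 14.2% of the other. Ratios between libraries below have the WT level as the denominator, and ranges in parentheses are exact 95% intervals, which cover counting error only.

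The sequences upstream of both cyclooxygenase genes are shown because these genes catalyse the same reaction while Ptgs2 is known as inducible and Ptgs1 as constitutive. They are the 250 bases before the RefSeq transcript start on the plus strand (GRCm38.p6), at chr1:150099781-150100030 for Ptgs2 and chr2:36230176-36230425 for Ptgs1, followed by the first 30 bases of the Ptgs2 transcript, at chr1:150100031-150100060. Capitals mark matches on either strand to 7 motifs: the TATA box TATAAA, the CRE core TGACG, the E-box CACGTG, the C/EBP site TTGCNNAA, the AP-1 site TGANTCA, the GC box GGGCGG and the PU.1 core GAGGAA.
Ptgs2 upstream: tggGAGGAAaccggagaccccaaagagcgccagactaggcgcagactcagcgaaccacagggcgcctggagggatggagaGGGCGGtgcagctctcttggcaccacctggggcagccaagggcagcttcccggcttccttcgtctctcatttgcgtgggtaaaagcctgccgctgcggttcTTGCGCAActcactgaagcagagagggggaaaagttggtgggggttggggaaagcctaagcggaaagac
Ptgs2 start: agagtcaccactaCGTCACGTGgagtccgc
Ptgs1 upstream: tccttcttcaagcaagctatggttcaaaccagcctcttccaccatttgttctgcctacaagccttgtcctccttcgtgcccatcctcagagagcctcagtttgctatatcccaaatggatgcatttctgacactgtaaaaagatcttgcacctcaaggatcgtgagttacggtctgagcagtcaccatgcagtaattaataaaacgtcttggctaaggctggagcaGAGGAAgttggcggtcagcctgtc
The Ptgs2 stretch held 1 C/EBP match, which 9.56% of all 32851 such upstream stretches in the table also held, 1 GC box (32.7%) and 1 PU.1 core (23.3%). Its transcript start held an overlapping CRE core and E-box, found in 2.26% and 0.706% of starts. The Ptgs1 stretch held a PU.1 core alone among the 7 motifs. Promoters of 8 of the 10 genes were in the RefSeq table, and Alox5ap and Alox15 were not matched. A match is a stretch of letters and says nothing on binding.

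Ptgs2 (ENSMUSG00000032487, chromosome 1, 150100031 to 150108227, plus strand, GRCm38), the inducible cyclooxygenase, was a gene of neutrophils and mononuclear phagocytes. In neutrophils it stood at 491 CPM in the WT library (461 to 523, 980 UMIs) and at 434 CPM in the other (412 to 458, 1387 UMIs). Monocytes/macrophages followed at 328 CPM in both libraries (2313 and 2303 UMIs), and dendritic cells at 149 and 163 CPM. The step from neutrophils to monocytes/macrophages was beyond counting error in each library, with ratios of 1.5 (1.39 to 1.62) and 1.32 (1.24 to 1.42), as was the next step to dendritic cells (2.20 and 2.01). B cells had 9.27 and 3.05 CPM, so that neutrophils stood 53.0-fold (40.4 to 70.6) and 143-fold (102 to 207) above them. Among monocyte/macrophage clusters, that led by F10, Chil3 and F13a1 had 381 and 413 CPM of Ptgs2. That led by C1qa, Cfb and Cxcl9 had 342 and 275 CPM, and that led by Retnla, Mrc1 and Pf4 210 and 151 CPM. The first exceeded the last 1.81-fold (1.59 to 2.06) and 2.73-fold (2.38 to 3.15). Monocytes/macrophages held 55.3% and 50.9% of all Ptgs2 UMIs and neutrophils 23.4% and 30.7%.

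Among lymphoid cells Ptgs2 was concentrated in a few clusters. The T cell cluster led by Trdc, Il17a and Cd163l1, genes of interleukin-17 producing gamma-delta T cells, held 129 CPM (112 UMIs) and 110 CPM (73 UMIs), against 9.30 and 2.38 CPM in the T cell cluster led by Lef1 and Dapl1, a ratio of 13.9 (8.59 to 23.6) and 45.9 (18.8 to 146). Group 2 innate lymphoid cells (ILC2) held 51.3 CPM (31.3 to 79.2) and 153 CPM (100 to 224), yet this was 20 UMIs in 8 of 141 cells and 26 UMIs in 6 of 33 cells. Mast cells had 8 Ptgs2 UMIs in the WT library (30 CPM) and 0 UMIs in 21 cells in the other. This allows a share of up to 16.1% of cells with a UMI and sets no limit on cells that express the gene. A cluster led by Il22 that took no class name held 29 and 14 Ptgs2 UMIs in 145 and 7 cells.

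Ptgs1 (chromosome 2, 36230426 to 36252272, plus strand), the cyclooxygenase known as constitutive, was scarce, with 130 UMIs in all kept WT cells (3.79 CPM) and 79 in the other library (2.10 CPM). Monocytes/macrophages had 9.63 CPM of Ptgs1 (7.48 to 12.2, 68 UMIs) and 4.99 CPM (3.47 to 6.94, 35 UMIs), and neutrophils 9.52 CPM (19 UMIs) and 7.52 CPM (24 UMIs). These classes did not differ in Ptgs1 beyond counting error within either library (1.01, 0.601 to 1.78, and 0.663, 0.384 to 1.17, for monocytes/macrophages over neutrophils). B cells had 0 and 1 UMI, T cells 5 and 1, and platelets, which are rich in this enzyme, formed no cluster. The exons of Ptgs1 overlap the predicted gene Gm43621 on the opposite strand, and so do those of Alox5ap with Gm19719 and of Ltc4s with Gm26542. Use of strand in the counting was not stated in the sources used here, and mixing of reads in such pairs was not tested.

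Ptges (chromosome 2, 30889471 to 30929863, minus strand), the inducible prostaglandin E synthase that works downstream of Ptgs2, was close to the limit of the assay. It had 33 UMIs in 22 WT cells and 67 UMIs in 35 cells of the other library. Monocytes/macrophages held 17 and 43 of these, at 2.41 CPM (1.40 to 3.86) and 6.13 CPM (4.43 to 8.25). A single cell gave 7 of the 17 UMIs (41.2%) and another 20 of the 43 (46.5%). The class named fibroblast had 0 Ptges UMIs in 30 WT cells and 10 in 34 cells of the other library (28.4 CPM, 13.6 to 52.1, in 7 cells), its highest level there. The WT cells of that class go against its name: fibroblast markers summed to 602 CPM, with Col1a1, Lum and Pdgfra at 0, against 1393 CPM of endothelial markers (7 of 7 detected) and 1618 CPM of epithelial markers (6 of 8). In the other library these lists summed to 11431, 680 and 1676 CPM. Neutrophils had 6 and 7 UMIs and B cells 0 and 0. Of the 693 and 299 monocytes/macrophages with a Ptgs2 UMI, 5 and 12 also had a Ptges UMI.

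Hpgds (chromosome 6, 65117293 to 65144908, minus strand), the hematopoietic prostaglandin D synthase, was highest in mast cells. These cells, defined by Mcpt4, Cpa3 and Cma1 (the 11 mast cell markers summed to 61200 and 119905 CPM), had 240 CPM (185 to 306, 64 UMIs in 141 cells) and 291 CPM (190 to 427, 26 UMIs in 21 cells). That was 4.39-fold (3.31 to 5.73) and 7.38-fold (4.74 to 11) above monocytes/macrophages. Within monocytes/macrophages the gene was uneven. The cluster led by C1qa, Cfb and Cxcl9 had 89.9 and 79.5 CPM and that led by Retnla, Mrc1 and Pf4 52.3 and 69.1 CPM, while that led by F10, Chil3 and F13a1 had 16.5 and 13.9 CPM. Both of the former exceeded the latter beyond counting error in each library, by 5.45-fold and 5.74-fold for the C1qa cluster and by 3.16-fold and 4.98-fold for the Retnla cluster.

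B cells carried Hpgds at 42.0 CPM (37.0 to 47.5, 254 UMIs) and 42.8 CPM (39.0 to 46.8, 477 UMIs). T cells had 15 and 12.9 CPM, a B cell level 2.81-fold (2.19 to 3.62) and 3.32-fold (2.54 to 4.41) higher. After every cell was thinned to 1000 UMIs, 3.63% (2.82 to 4.58) and 3.30% (2.67 to 4.04) of B cells held an Hpgds UMI, against 0.821% (0.449 to 1.37) and 1.25% (0.624 to 2.22) of T cells. Shares before thinning were 9.09% and 12.9% of B cells, at medians of 2658.5 and 3444.0 UMIs, and 4.24% and 5.40% of T cells, at 2231.0 and 4684.0 UMIs. The mast cell marker list summed to 24.7 and 15.5 CPM in B cells and to 50.6 and 21.9 CPM in T cells. The monocyte/macrophage list summed to 1377 and 1144 CPM in B cells and to 721 and 605 CPM in T cells, and its part in the B cell level was not tested. An unnamed cluster led by histone genes had a similar Hpgds level, at 41.2 and 45.5 CPM.

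Hpgd (chromosome 8, 56294585 to 56321043, plus strand), which inactivates prostaglandins, was a monocyte/macrophage transcript. This class had 45.9 CPM (41.0 to 51.2, 324 UMIs) and 47.3 CPM (42.4 to 52.7, 332 UMIs), which was 79.2% and 72.0% of all Hpgd UMIs. Dendritic cells had 12 and 23.4 CPM and neutrophils 8.02 CPM (16 UMIs) and 1.25 CPM (4 UMIs). Monocytes/macrophages thus exceeded neutrophils 5.73-fold (3.47 to 10.1) and 37.8-fold (14.6 to 139). The 3 monocyte/macrophage clusters lay closer together in Hpgd than in Hpgds, between 31.3 and 60.4 CPM over both libraries. Mast and NK cells had 0 UMIs in both libraries. The 37 Hpgd UMIs in fibroblasts of the library labelled Otud1-/- came from 4 of 34 cells, 33 of them from 1 cell, and the WT cells of that class had 0.

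**Figure D1:**
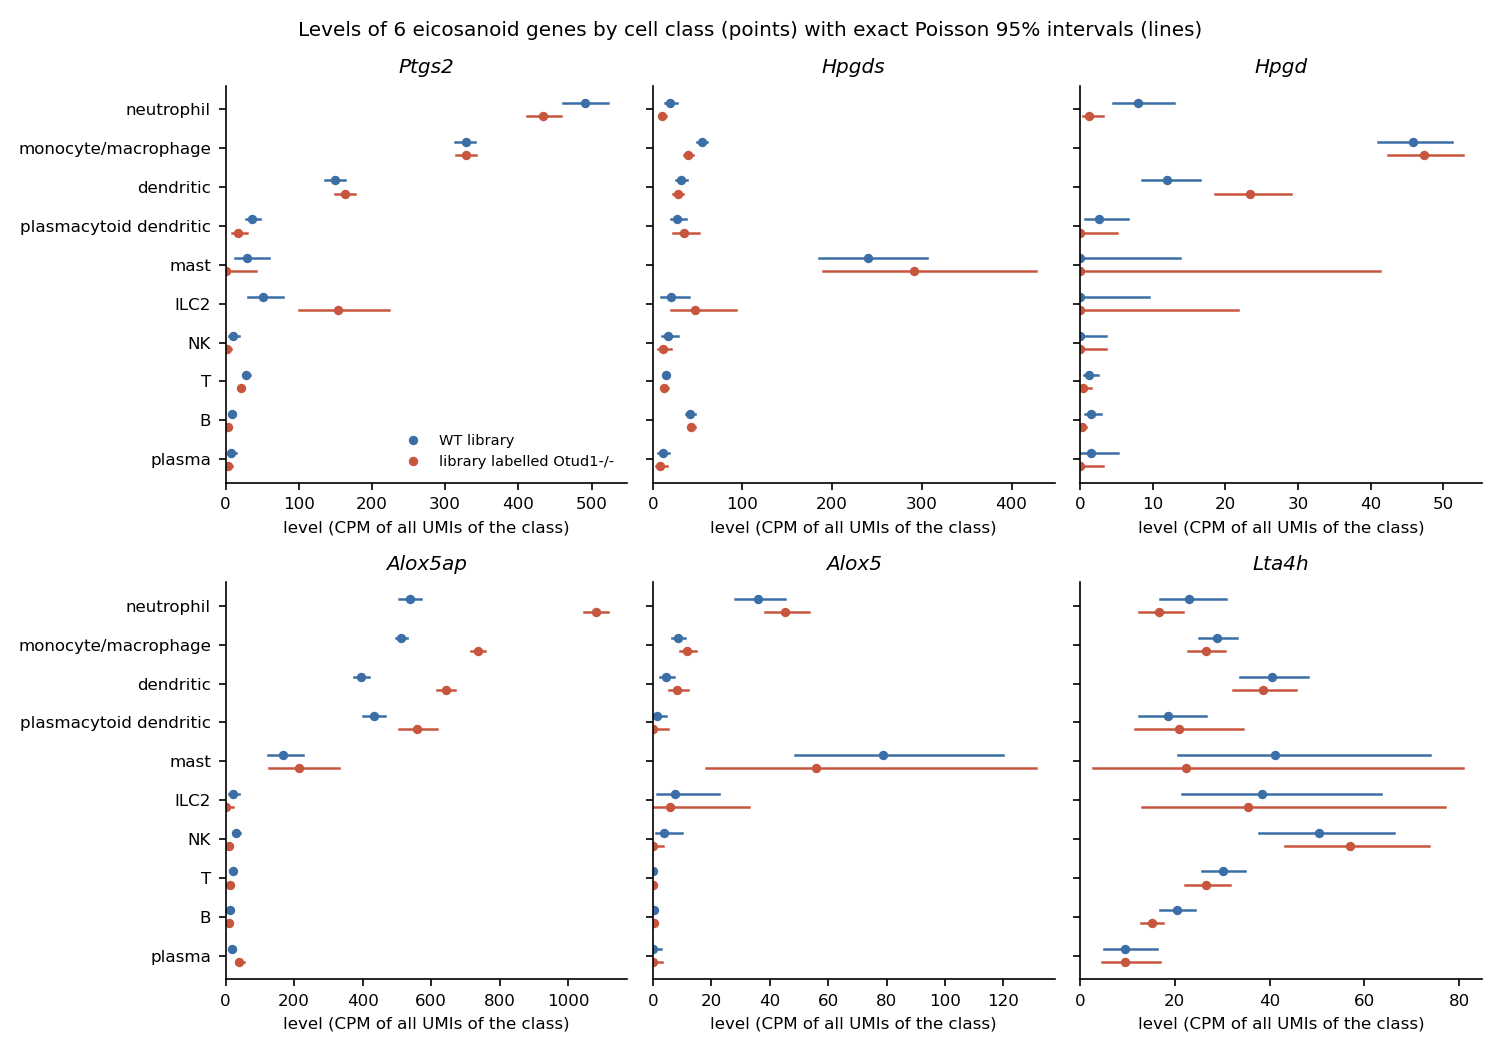
Level of Ptgs2, Hpgds, Hpgd, Alox5ap, Alox5 and Lta4h in CPM (horizontal axis, own scale for each gene) in 10 cell classes, for the WT library (blue) and the library labelled Otud1-/- (red). Points are levels over all cells of a class and lines are exact Poisson 95% intervals. Ptgs2 and Alox5ap stand out in neutrophils and mononuclear phagocytes, Hpgds in mast cells at 240 and 291 CPM, and Lta4h is spread over all classes.

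On the lipoxygenase side, Alox5ap (ENSMUSG00000060063, chromosome 5, 149264767 to 149288153, plus strand) had 7221 and 11689 UMIs. It was high in every myeloid class. Neutrophils had 538 CPM (506 to 571, 1074 UMIs) and 1080 CPM (1045 to 1117, 3449 UMIs), monocytes/macrophages 513 and 736 CPM, dendritic cells 396 and 643 CPM, and plasmacytoid dendritic cells 432 and 559 CPM. In the WT library neutrophils and monocytes/macrophages did not differ beyond counting error (1.05, 0.979 to 1.12), whereas in the other neutrophils were 1.47-fold higher (1.41 to 1.53). Mast cells had 169 CPM (123 to 226, 45 UMIs) and 213 CPM (128 to 332, 19 UMIs). B cells had 13.1 and 9.14 CPM, and the neutrophil level was 41.2-fold (32.7 to 52.4) and 118-fold (97.1 to 145) above theirs.

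Alox5 (chromosome 6, 116410077 to 116461178, minus strand), the 5-lipoxygenase itself, was narrower than its partner. Mast cells had 78.7 CPM (48.7 to 120, 21 UMIs) and 56.0 CPM (18.2 to 131, 5 UMIs), and neutrophils 36.1 CPM (28.2 to 45.4, 72 UMIs) and 45.4 CPM (38.3 to 53.4, 145 UMIs). Mast cells exceeded neutrophils in the WT library (2.18, 1.27 to 3.59) but not beyond counting error in the other (1.23, 0.394 to 2.94). Neutrophils in turn exceeded monocytes/macrophages 4.24-fold (2.97 to 6.08) and 3.84-fold (2.91 to 5.09). Among monocyte/macrophage clusters Alox5 was at 19.6 and 18.6 CPM in the Retnla cluster, 6.91 and 12.9 CPM in the F10 cluster and 4.10 and 2.04 CPM in the C1qa cluster. Plasmacytoid dendritic cells, where Alox5ap was in 50% and 91.7% of cells, had only 2 and 0 Alox5 UMIs. Of 65 and 119 neutrophils with an Alox5 UMI, 45 (69.2%) and 115 (96.6%) also had an Alox5ap UMI, against 52.7% and 84.1% of all neutrophils. Cells with both were deeper, at medians of 3123.0 and 4021.0 UMIs against 1574.5 and 2642.0.

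Lta4h (chromosome 10, 93453411 to 93484875, plus strand), which makes leukotriene B4 from leukotriene A4, was spread over all classes. Its level lay between 9.42 and 57.0 CPM in each of them. NK cells were at 50.5 CPM (37.7 to 66.2) and 57.0 CPM (43.3 to 73.7), above neutrophils at 23.0 CPM (16.9 to 30.7) and 16.6 CPM (12.4 to 21.7), by 2.19-fold (1.45 to 3.33) and 3.43-fold (2.32 to 5.08). T cells, at 30.1 and 26.6 CPM, were also below NK cells beyond counting error. No neighbours in the order of classes differed beyond counting error among WT cells, and in the second library only NK cells stood apart from the next class, dendritic cells at 38.5 CPM.

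Ltc4s (chromosome 11, 50236461 to 50238616, minus strand), which makes leukotriene C4, was low everywhere. Monocytes/macrophages had 9.77 CPM (7.60 to 12.4, 69 UMIs) and 8.12 CPM (6.15 to 10.5, 57 UMIs). Within them it was highest in the Retnla and Mrc1 cluster, at 24.8 and 19.9 CPM, against 3.46 and 4.95 CPM in the F10 and Chil3 cluster, a ratio of 7.18 (3.41 to 16.9) and 4.02 (2.21 to 7.48). Mast cells had 3 UMIs in 141 cells and 1 UMI in 21 cells. B cells, with 20 and 63 UMIs, exceeded T cells, with 7 and 6, by 2.75-fold (1.12 to 7.69) and 4.46-fold (1.94 to 12.6).

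Alox15 (chromosome 11, 70344152 to 70352031, minus strand), the 12/15-lipoxygenase known from eosinophils and resident peritoneal macrophages, had 3 UMIs in 3 kept cells of each library. Neutrophils and mast cells had 0 in both. The library totals of 0.0875 CPM (0.0180 to 0.256) and 0.0797 CPM (0.0164 to 0.233) do not allow a comparison between classes.

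Of the 10 genes, 6 had their highest class in common between the libraries: Ptgs1 in the class named fibroblast, Ptgs2 and Alox5ap in neutrophils, Alox5 and Hpgds in mast cells and Lta4h in NK cells. The Ptgs1 entry rested on 2 and 6 UMIs in a class whose WT cells go against its name, so it does not show a shared cell type. When every cell was thinned to 1000 UMIs, the count dropped to 2 genes, Ptgs2 and Hpgds. Other settings also changed which genes shared a class. At resolution 0.5, at 5% mitochondrial UMIs and with the mean over cells, WT Lta4h was highest in the class named fibroblast. With only the largest shared cluster of each class, WT Alox5ap was highest in monocytes/macrophages. With no doublets removed, Ptges was highest in the class named fibroblast in both libraries.

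**Figure D2:**
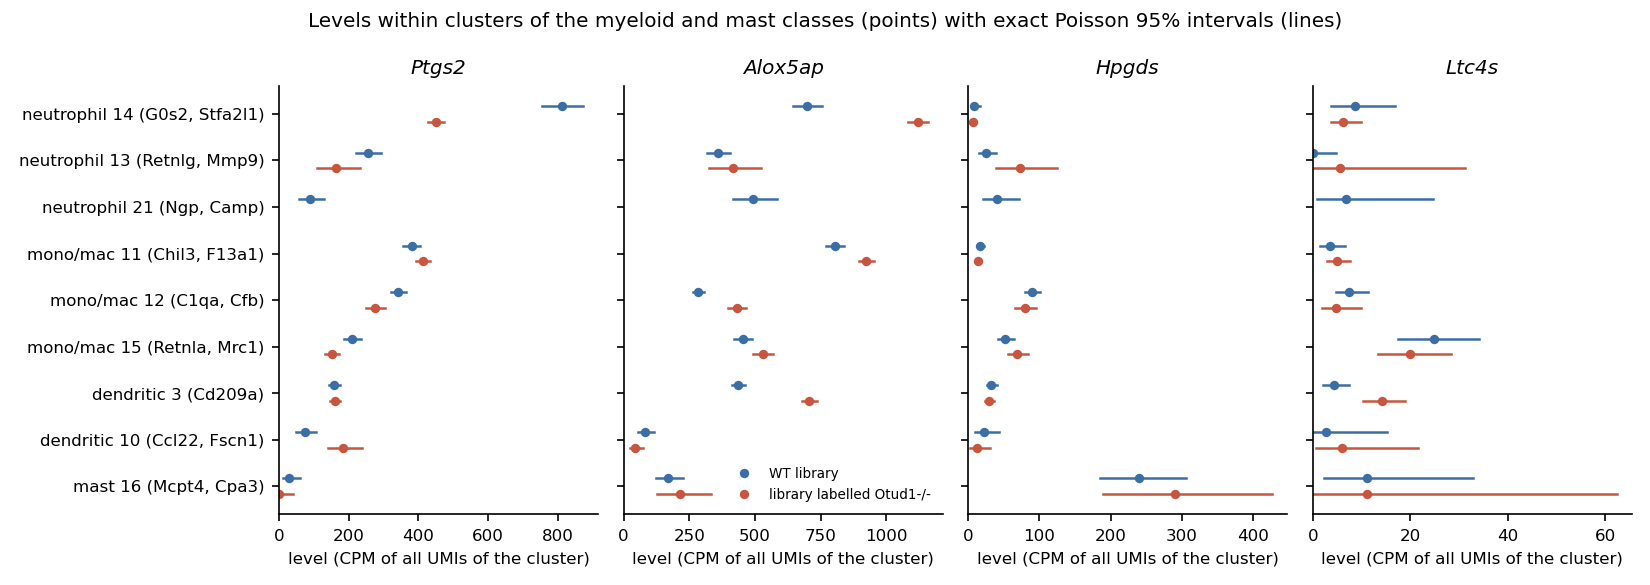
Level of Ptgs2, Alox5ap, Hpgds and Ltc4s in CPM (horizontal axis, own scale for each gene) in 9 clusters of neutrophils, monocytes/macrophages (mono/mac), dendritic and mast cells, named by leading genes, for the WT library (blue) and the library labelled Otud1-/- (red). Points are levels, lines exact Poisson 95% intervals, and cluster 21 held WT cells alone. Ptgs2 reaches 813 CPM in WT cells of cluster 14, Ltc4s is highest in cluster 15 among the mono/mac clusters, and Alox5ap is lowest in cluster 10.

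The neutrophil class was made of different cells in the 2 libraries, which bears on every neutrophil value above. A cluster led by G0s2, Stfa2l1 and Cxcr2 (cluster 14), genes of mature neutrophils, held 374 of 952 WT neutrophils and 852 of 891 of the other library. A cluster led by Retnlg, Wfdc21 and Mmp9 (cluster 13) held 477 and 39, and a cluster led by the granule genes Ngp, Camp and Ltf (cluster 21) held 101 and 0. Ptgs2 differed among them. In the WT library it was at 813 CPM in cluster 14, 255 CPM in cluster 13 and 88.7 CPM in cluster 21. Cluster 14 exceeded cluster 13 by 3.19-fold (2.73 to 3.76) and 2.77-fold (1.92 to 4.15) in Ptgs2, and by 1.94-fold (1.69 to 2.24) and 2.70-fold (2.14 to 3.44) in Alox5ap. Cluster 13 also had 2805 and 2582 CPM of B cell markers, against 867 and 303 CPM in cluster 14.

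Between the libraries, Alox5ap was the 1 gene of the 10 that was higher in neutrophils of the library labelled Otud1-/-, by 2.01-fold (1.87 to 2.15). A gene was counted as higher or lower at a ratio of 1.5 or more with at least 10 UMIs in the higher library, and 8 of the 10 genes had that many. The rule has no error term, so a count holds genes whose interval includes 1. By the same rule 12.7% of 9134 genes were higher in neutrophils and 48.9% lower. Hpgds (0.529, 0.322 to 0.863, 39 and 33 UMIs) and Hpgd (0.156, 0.0380 to 0.485, 16 and 4 UMIs) were lower, 2 of 8, which is below the share of all genes. The median log2 ratio was -0.25 over the 8 genes and -0.54 over all genes. Hpgds and Hpgd were each counted as lower under 7 of 12 other settings. Within cluster 14 neither was counted as lower. Hpgds had 8 and 20 UMIs there (0.774, 0.326 to 2.03). Hpgd had 2 and 3 UMIs (0.464, 0.0532 to 5.56), too few to be counted. Scaling by TMM or by median of ratios raised all neutrophil log2 ratios by 0.57 or 0.46, after which Alox5, Alox5ap and Ltc4s were higher and Hpgd alone was lower. Alox5ap was counted as higher under all 12 of these settings, with log2 ratios from 0.66 to 1.58 around the value of 1.01. The share of neutrophils with an Alox5ap UMI was 35.1% (31.7 to 38.5) and 66.3% (63.0 to 69.5) at 1000 UMIs per cell, against 1.62% and 1.02% of B cells (unthinned, 52.7% and 84.1% of neutrophils and 3.49% and 3.29% of B cells). Neutrophil markers took up 69792 CPM in the WT class and 115888 CPM in the other, all 13 detected in both, and B cell markers 1668 and 430 CPM, with all 9 detected in both. Their part in these ratios was not tested.

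Within cluster 14 the 2 leading genes moved apart. Alox5ap was at 699 CPM (646 to 755) and 1120 CPM (1082 to 1158), a ratio of 1.60 (1.47 to 1.74). Ptgs2 was at 813 CPM (756 to 873) and 451 CPM (427 to 475), a ratio of 0.554 (0.507 to 0.607), although the whole class gave 0.885 (0.815 to 0.961). Thinned to 1000 UMIs, 41.3% (35.8 to 46.9) and 26.9% (23.9 to 30.2) of these cells had a Ptgs2 UMI, and 45.1% (39.5 to 50.8) and 67.8% (64.4 to 71.0) an Alox5ap UMI. Alox5 was alike, at 46.1 and 46.8 CPM, with a ratio of 1.01 (0.717 to 1.46). With Ptgs1 (0.486, 0.238 to 1.03, 14 and 22 UMIs), 2 of the 7 genes with enough UMIs were lower and 1 was higher. Among all genes of the cluster 11.9% were higher and 26.8% lower. The cluster's neutrophil markers summed to 97224 and 120563 CPM, and their part was not tested.

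In monocytes/macrophages Ptgs2 (ratio 1, 0.945 to 1.06), Hpgd (1.03, 0.882 to 1.21) and Lta4h (0.917, 0.748 to 1.12) did not differ between the libraries beyond counting error. Of 9 genes with enough UMIs, 1 was higher, Ptges (2.54, 1.42 to 4.76), and 1 lower, Ptgs1 (0.518, 0.334 to 0.790), where 7.95% of all genes were higher and 13.6% lower. The Ptges log2 ratio was 1.19, and 0.49, below the limit, in cells with Y-linked and no Xist RNA. Thinned to 1000 UMIs per cell it had too few UMIs to be counted. The F10 cluster held 5 of the 17 WT UMIs and 39 of the 43 of the other library, and the C1qa cluster 11 and 4. Ptgs1 differed in the C1qa cluster, at 15.7 CPM (46 UMIs) and 5.44 CPM (8 UMIs), and the F10 and Chil3 cluster did not differ beyond counting error, at 3.84 and 3.96 CPM (1.03, 0.440 to 2.54). Alox5ap, at a ratio of 1.43 (1.37 to 1.5), lay just inside the 1.5-fold limit. It was 1.51 (1.36 to 1.68) in the C1qa cluster, 1.17 (1.05 to 1.29) in the Retnla cluster and 1.15 (1.09 to 1.21) in the F10 cluster. The F10 cluster held 928 of 2221 WT cells of the class and 370 of 608 of the other library. Neutrophil markers in this class summed to 2307 and 10052 CPM, all 13 detected in both, and their part was not tested.

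Dendritic cells had the most genes past the limit. Higher were 4 of 8: Alox5ap (1.62, 1.52 to 1.74), Alox5 (1.87, 0.958 to 3.83), Ltc4s (3.27, 1.74 to 6.58) and Hpgd (1.95, 1.31 to 2.94), and Ptgs1 was lower (0.531, 0.217 to 1.23). Among all genes 6.12% were higher and 21.1% lower, with a median log2 ratio of -0.17 against 0.41 for the 8 genes. The intervals of Alox5 and Ptgs1 included 1, and 7 of the 10 Ptgs1 UMIs came from 1 cell. Thinned to 1000 UMIs per cell, Alox5ap alone was higher and 0 genes were lower. Ltc4s had 13 UMIs in the WT library (4.10 CPM) and 47 in the other (13.4 CPM, in 18 cells), and at 1000 UMIs per cell 0.452% (0.123 to 1.15) and 1.79% (0.658 to 3.85) of cells had a UMI. The cluster led by Cd209a held 1224 of 1254 and 2240 of 2255 of the Alox5ap UMIs, at 437 and 706 CPM, while the cluster led by Ccl22 and Fscn1, genes of mature migratory dendritic cells, had 81.7 and 44.8 CPM. The first exceeded the second 5.35-fold (3.73 to 7.96) and 15.8-fold (9.53 to 28.2). In that second cluster Ptgs2 was at 73.5 CPM (27 UMIs) and 185 CPM (62 UMIs), in 125 and 38 cells. Neutrophil markers summed to 462 and 886 CPM in dendritic cells and monocyte/macrophage markers to 1192 and 1092 CPM, and their part was not tested.

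In lymphocytes and plasma cells levels were low and differences went both ways. Ptgs2 was lower in B cells (9.27 and 3.05 CPM, 0.329, 0.208 to 0.512) and Ltc4s higher (1.71, 1.02 to 2.98), 1 and 1 of 5 genes, where 10.3% of all genes were lower and 4.32% higher. Alox5ap was lower in T cells, at 21.3 CPM (17.7 to 25.4) and 13.5 CPM (10.4 to 17.2), 1 of 4 genes, with 0 of 4 higher, where 11.8% of all genes were lower and 4.17% higher. In NK cells Alox5ap was at 30.1 CPM (31 UMIs) and 8.84 CPM (9 UMIs) and Ptgs2 at 9.71 CPM (10 UMIs) and 1.96 CPM (2 UMIs), 2 of 4 lower and 0 higher, where 18.8% of all genes were lower and 8.96% higher. The Ptgs2 call in NK cells was kept under 6 of 12 other settings, and was lost for example at 5% mitochondrial UMIs, with a log2 ratio of -0.64, and without the highest cell, where too few UMIs remained. Plasma cells had 1 of 4 higher, Alox5ap with 26 and 47 UMIs, and 1 lower, Ptgs2 with 11 and 4, where 6.62% of all genes were higher and 30.9% lower. Monocyte/macrophage markers summed to 1030 and 487 CPM in NK cells (13 and 11 of 16 detected), 1377 and 1144 CPM in B cells and 721 and 605 CPM in T cells (15 of 16 in both libraries), and 1997 and 2404 CPM in plasma cells (13 and 14 of 16). Neutrophil markers summed to 446 and 282 CPM in NK cells, 184 and 311 CPM in B cells, 249 and 383 CPM in T cells and 173 and 390 CPM in plasma cells. The part of such RNA in these low levels was not tested.

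**Figure D3:**
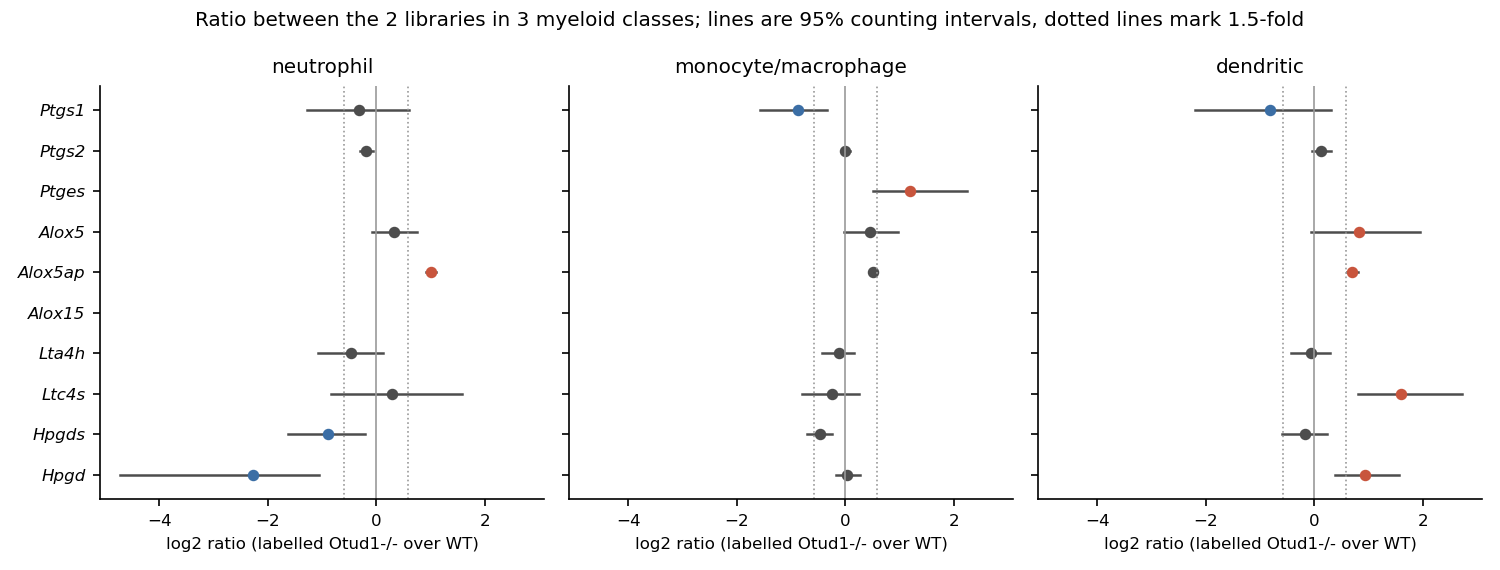
Log2 ratio (horizontal axis; above 0, higher in the library labelled Otud1-/-) for each of the 10 genes with at least 10 UMIs in the higher library, in neutrophils, monocytes/macrophages and dendritic cells. Red points are at least 1.5-fold higher, blue points at least 1.5-fold lower, grey points lie between the dotted 1.5-fold lines, and horizontal lines are exact 95% counting intervals. Alox5ap lies right of 0 in all 3 classes, at 1.01, 0.52 and 0.70, and Ptgs2 lies near 0 in all 3. Whole classes are shown, and within neutrophil cluster 14 the Ptgs2 log2 ratio was -0.85.

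Because cells of the library labelled Otud1-/- were deeper, shares of cells with a UMI were compared after thinning to 1000 UMIs, which left out 1263 and 288 shallower cells. For Ptgs2 the intervals of the thinned shares overlapped between libraries in each of 3 myeloid classes: 27.8% and 26.5% of neutrophils, 20% and 19.6% of monocytes/macrophages and 11.1% and 10.1% of dendritic cells, against 36.3% and 43.9%, 31.2% and 49.2%, and 18.8% and 34.7% before thinning. B cells gave 0.812% and 0.399% after thinning. The neutrophil shares are of the whole class. Within cluster 14 the thinned Ptgs2 shares given above were apart, and its Ptgs2 level had a ratio of 0.554 (0.507 to 0.607). For Alox5ap the thinned shares stayed apart, at 36.8% (34.7 to 38.9) and 49.0% (44.8 to 53.1) of monocytes/macrophages and 26.1% (23.3 to 29.2) and 38.1% (32.9 to 43.5) of dendritic cells. Alox5 was found in 3.84% and 5.21% of neutrophils, and Hpgds in 18.6% (11.9 to 27.0) and 23.8% (8.22 to 47.2) of mast cells.

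**Figure D4:**
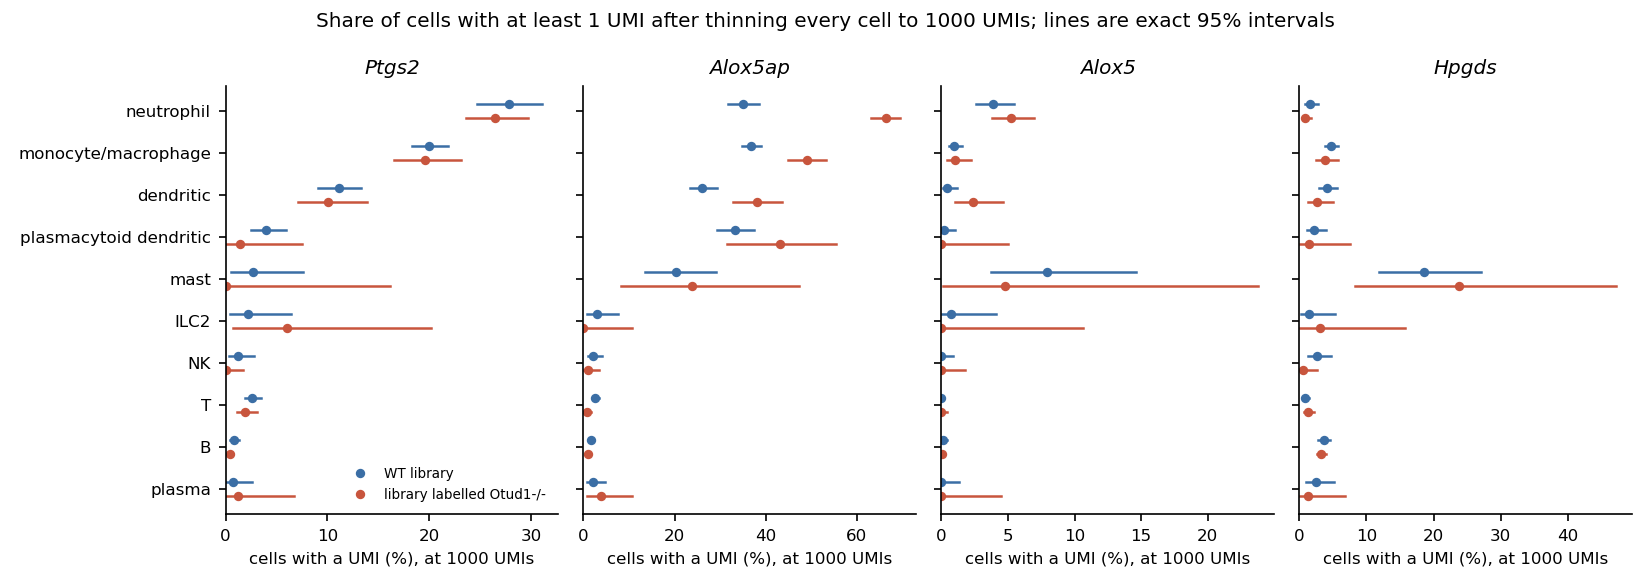
Share of cells in percent (horizontal axis, own scale for each gene) with at least 1 UMI of Ptgs2, Alox5ap, Alox5 or Hpgds after thinning each cell to 1000 UMIs, in 10 classes of the WT library (blue) and the library labelled Otud1-/- (red), with exact Clopper-Pearson 95% intervals as lines. The libraries overlap for Ptgs2 in neutrophils (27.8% and 26.5%) and are apart for Alox5ap (35.1% and 66.3%). Neutrophils are shown as a whole class, whose cluster make-up differed between the libraries.

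The wider pathway was read from 56 other genes of eicosanoid release, synthesis, transport and reception, all in the files. In neutrophils 23 had enough UMIs, of which 6 were higher and 9 lower, with a median log2 ratio of -0.18, where 12.7% of all genes were higher and 48.9% lower with a median of -0.54. Cyp4f18, which inactivates leukotriene B4 by hydroxylation, was at 260 and 538 CPM (2.07, 1.87 to 2.29). Pla2g7, which degrades platelet-activating factor, was at 243 and 488 CPM (2.01, 1.81 to 2.23). Mgst1, a membrane glutathione transferase, was at 90.2 and 179 CPM. Ggt5, which converts leukotriene C4 to D4, was at 14 and 27.3 CPM, the prostaglandin E2 receptor gene Ptger2 at 9.52 and 19.7 CPM, and Ltb4r1, the high-affinity leukotriene B4 receptor, at 41.6 and 65.2 CPM. Lower were Ptges3, a co-chaperone with prostaglandin E synthase activity, at 115 and 60.1 CPM, and Akr1b3, an aldose reductase, at 44.1 and 5.95 CPM (0.135, 0.0776 to 0.224). B cells had 59.4 and 70.1 CPM of Akr1b3 and T cells 89.5 and 102 CPM. All these neutrophil values are of the whole class, of which cluster 14 made up 374 of 952 and 852 of 891 cells. The part of this make-up and of B cell RNA in these ratios was not tested.

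Monocytes/macrophages had 32 of the 56 with enough UMIs, 5 higher and 5 lower, with a median log2 ratio of 0.14, where 7.95% of all genes were higher and 13.6% lower. Ltb4r1 was at 40.2 and 81.7 CPM (2.03, 1.76 to 2.35) and Fpr2, a receptor of formyl peptides and lipoxin A4, at 33.1 and 62.1 CPM (1.87, 1.60 to 2.21). Tbxas1, thromboxane synthase, was at 26.8 and 42.2 CPM, Ptges2 at 4.53 and 7.70 CPM and the prostacyclin receptor gene Ptgir at 5.52 and 8.55 CPM. Pla2g15, a lysosomal phospholipase, was lower, at 25.4 and 16.4 CPM. In dendritic cells 25 had enough UMIs, 4 higher and 5 lower, where 6.12% of all genes were higher and 21.1% lower. The 5 other lipoxygenase genes listed had too few UMIs in all 3 classes.

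The class with the highest level differed among receptors and other partners, and these orders were not checked against counting error. Each peak was taken over both libraries together, so it need not be the highest class in each. Fpr2 peaked in neutrophils, at 213 and 287 CPM, where Cyp4f18 and Pla2g7 also peaked. ILC2 had the highest levels of 4 receptor genes: Cysltr1 for cysteinyl leukotrienes (113 CPM, 44 UMIs), Ltb4r1 (136 CPM, 23 UMIs), Ptgir (105 CPM, 41 UMIs) and Ptger4 (79.4 CPM, 31 UMIs), given for the library with the higher value. For Ptger4 dendritic cells were close, at 67.2 CPM (213 UMIs) and 71.5 CPM (251 UMIs). In the library labelled Otud1-/-, Tbxa2r, the thromboxane receptor gene, peaked in plasmacytoid dendritic cells (70.7 CPM, 51 UMIs) and Cysltr2 in NK cells (51.1 CPM, 52 UMIs). Ptges3 peaked in dendritic cells of the WT library, at 235 CPM against 190 CPM in the other. Akr1b3 peaked in T cells of the library labelled Otud1-/-, at 102 CPM against 89.5 CPM in the WT library. The prostaglandin transporter gene Slco2a1 was highest, at 414 CPM (33 UMIs), in the 30 WT cells of the class named fibroblast, whose markers go against that name. Mgst1 (232 CPM) and Ephx1 (56.7 CPM, 20 UMIs) were highest in the 34 cells of that class in the other library.

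Across the 25 clusters, each gene of the 10 that reached 50 CPM in a cluster was set beside the 6042 other genes that did so, by Pearson's r of log2(CPM + 10) over both libraries summed. These are descriptions, since clusters share libraries and depth. Ptgs2 was most like Il1b (r = 0.925), the interleukin-1 beta gene, then Cstb (0.918) and Ccrl2 (0.914). Alox5ap was most like 3 genes of myeloid surface receptors, Cd300a (0.953), Cd300c2 (0.952) and Nfam1 (0.936). Alox5 was most like Hdc (0.898), the histamine-forming enzyme, followed by Rab44 (0.896) and Mctp1 (0.891). Hpgds was most like Lat2 (0.849) and Dnase2a (0.777). Among the genes most like Hpgd were Nupr1 (0.957) and Sash1 (0.947), both highest in the fibroblast cluster, where 1 cell gave 33 of 37 Hpgd UMIs. Lta4h was most like Pdcd6ip (0.812), Tab2 (0.793) and Cdc37 (0.787). Ptgs1, Ptges, Alox15 and Ltc4s stayed below 50 CPM in every cluster.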

How the data were processed

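Single-cell RNA from 1 WT library and 1 library labelled Otud1-/- was analysed. The deposited values are UMI counts of each gene in each barcode, not normalised, per the file headers. Cell Ranger 5.0.0, Seurat 3.2.3 and mm10 were used per the submitters' processing notes, and the file headers name Cell Ranger 6.0.1.

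Barcodes under 200 genes or over 15% mitochondrial UMIs (475 WT and 1152 others) were dropped. Scrublet's automatic threshold marked 0 and 0 cells, so the highest scores of a Scrublet-type simulation were removed at 0.8% per 1000 barcodes (1355 and 450 cells). This score was chosen after seeing the data. Both libraries were clustered together with scanpy 1.11.5 (2000 variable genes, 30 components, 20 neighbours, Leiden resolution 1). Clusters were named by the marker list with most hits, 3 or more, among their top 50 genes by CPM ratio. Counts were summed per class and library, and log2 ratios used a prior of 0.5 CPM. Levels have exact Poisson, shares exact Clopper-Pearson and ratios exact conditional binomial intervals. Scaling was also tried by TMM (edgeR 4.0.16) and by median of ratios, and ratios were tested on simulated data.

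The genes and lists were chosen with earlier results of these data known. Named were the 10 genes in every class, pathway genes where their highest class reached 50 CPM with 10 UMIs, those past 1.5-fold in neutrophils or monocytes/macrophages with 50 UMIs, and the 3 most alike genes, some of which are not reported here. Protein sequences were not used here.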

Additional observations from a re-analysis of the deposited data

Results flagged for a closer look

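Alox5ap differed between the libraries in opposite directions in different classes. Its log2 ratio (library labelled Otud1-/- over WT) was 1.01 in neutrophils, 0.70 in dendritic cells and 1.06 in plasma cells, but -1.71 in NK cells and -0.64 in T cells. Hpgd had a log2 ratio of 0.93 in dendritic cells and of -2.28 in neutrophils. The latter rested on 16 and 4 UMIs, of which cluster 14 held 2 and 3. Each of these ratios of whole classes was past 1.5-fold with a counting interval that did not include a ratio of 1. With 1 library per genotype, the differences between classes were not tested. The Hpgd value turned to 0.13 in neutrophils with no doublets removed, and its neutrophil call was kept in 7 of 12 settings. In dendritic cells Hpgd turned to -2.77, and Alox5ap to -1.45, under scanpy's Scrublet scores. Only the Ccl22 cluster, with 113 and 33 cells, then kept the dendritic name. In the main setting the matching cluster held 1 and 1 Hpgd UMIs, too few to be counted. The plasma cell value of Alox5ap turned to -0.17 in cells with Y-linked and no Xist RNA, and its call was kept in 8 of 12 settings. The T cell call was kept in 10 of 12, and the NK cell call in 11 of 12. Both were lost in cells with Y-linked and no Xist RNA, and the T cell call also in the largest shared cluster.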

How the results depend on the processing

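No paired analysis was possible because each genotype has 1 library and no comparison has a test. Counts as reported were 1 higher and 2 lower in neutrophils, 1 and 1 in monocytes/macrophages, 4 and 1 in dendritic cells, and 6 genes with a shared highest class. With no doublets removed, monocytes/macrophages had 2 higher and 0 lower and dendritic cells 0 lower, Ptgs1 in dendritic cells turned to a log2 ratio of 0.38 and Hpgd in neutrophils to 0.13. At 5% mitochondrial UMIs, 2 were lower in monocytes/macrophages. At resolution 0.5, Alox5 in dendritic cells was no longer counted as higher, and at resolution 2, 0 genes were lower there. Shared highest classes also changed under further settings, as given above. With TMM or median of ratios, neutrophils had 3 higher (Alox5, Alox5ap, Ltc4s) and 1 lower (Hpgd); these shifted all neutrophil log2 ratios by 0.57 and 0.46. With the mean over cells, monocytes/macrophages had 2 higher and 2 lower and dendritic cells 2 lower. In cells with Y-linked and no Xist RNA (2579 and 4080 cells), neutrophils had 3 higher and 0 lower, monocytes/macrophages 0 higher and dendritic cells 0 lower, with Ptgs1 there at 0.05 and Alox5ap in plasma cells at -0.17. Without a UMI minimum, 2 were higher in monocytes/macrophages. In dendritic cells Ptges (1 and 4 UMIs) and Alox15 (0 and 1 UMIs) were then higher too. With 30 UMIs, 1 was lower in neutrophils and 0 in dendritic cells, where Alox5 (14 and 29 UMIs) was no longer counted as higher. Thinned to 1000 UMIs, 1 was lower in neutrophils, 2 in monocytes/macrophages and 0 in dendritic cells, and 1 was higher in dendritic cells. There 2 genes had a shared highest class, Ltc4s in B cells was -0.38 and Ptgs2 in plasma cells 0.76. The last value rested on 2 and 1 plasma cells with a UMI. Fewer UMIs remain after thinning; the cause of the other changes was not tested. Of 2 settings added after seeing the data, scanpy's Scrublet scores gave 1 lower in neutrophils, 0 lower in monocytes/macrophages and 1 higher in dendritic cells. Alox5 was at -2.77, Alox5ap at -1.45 and Hpgd at -2.77 there, because the Cd209a cluster then had 2 of its markers and took no class name. Only the Ccl22 cluster, with 113 and 33 cells, kept the dendritic name. In the main setting the matching cluster held 1 and 2 Alox5 UMIs and 1 and 1 Hpgd UMIs, too few to be counted. Only the largest shared cluster gave 2 higher and 0 lower in monocytes/macrophages, with Ptgs1 at 0.04. Genes with under 10 UMIs in a class cannot be read at this depth.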
